A study of Homo sapiens with 15 samples.

Results

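Immediate early genes are the genes that cells transcribe first after a stimulus, from factors already present and without new protein. The 10 genes described here (FOS, FOSB, JUN, JUNB, EGR1, EGR2, EGR3, NR4A1, NR4A2 and IER2) were chosen by name as members of this class, and their probes were found through the RefSeq accession that each array file pairs with a probe. They were measured by 11 of 58201 probes and make up 10 of the 26826 features tested. NR4A2 alone had more than 1 probe, and the brighter one was used. All 11 probes were well above background on all 15 arrays, so no gene was lost to the filter on dim probes.

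A2058 cells, an established human melanoma line grown in medium with serum, were treated for 8 hours with 3 μM NP, with its solvent DMSO, with 5 mM metformin (MET), with 50 μM phenformin (PHEN), or with water (W), the solvent of both biguanides. Each group had 3 independent experiments, R1 to R3, and each RNA was hybridized to 1 single-dye Agilent human expression array. NP stands for neopetasin in the title of the series, whereas the paper gives the same cell line, dose and time for petasin (PT), and the array data cannot settle which of these compounds was applied. All values come from 1 cell line at 1 dose and 1 time per compound. The 8 hour time point falls after the peak that these genes usually reach, so the arrays record their level late in the treatment and not their first burst. The DMSO and NP arrays lay on slides 1 and 2, and the W, MET and PHEN arrays on slides 3 and 4, so that solvent and slide set cannot be told apart.

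As background, growth factor receptors and the RAS, RAF, MEK and ERK kinases act on immediate early genes through ternary complex factors such as ELK1 bound with serum response factor (SRF) at CArG boxes, and cAMP and stress signals act through CREB and ATF proteins at cAMP response elements (CREs). FOS, FOSB, JUN and JUNB are subunits of AP-1, a basic leucine zipper (bZIP) dimer. EGR1, EGR2 and EGR3 are zinc finger factors that bind GC-rich sites. NR4A1 and NR4A2 are orphan nuclear receptors controlled mainly by their amount, and IER2 is a short-lived nuclear protein. In melanoma, this output is often held high by mutant BRAF or NRAS, and mRNAs of the class decay within a short time once transcription stops.

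The promoters are shown because they carry some of the elements through which these genes are switched on. RefSeq promoter windows (GRCh38.p14, 250 bases before to 50 bases after a start site) were matched for 8 of the 10 genes in 11 windows, with 3 for EGR2 and 2 for NR4A1. Sequences were searched on both strands. The core of the CRE, TGACG, stood in at least 1 window of 7 of the 8 genes, all but NR4A1, and in 7 of the 11 windows, compared with 24.6% of 35116 promoter windows of the same length. The full CRE, TGACGTCA, stood in no window of the 8 genes (1.85% of all), and neither did the AP-1 site TGANTCA (7.71% of all). A CArG box stood in EGR1 and EGR2 (1.29% of all), as did the EGR site GCGNGGGCG (9.43% of all). The TATA motif TATAAA stood in FOS, FOSB and JUNB (11.5% of all). The ETS core GGAAG was found for 7 of the 8 genes, all but FOS, but also in 71.9% of all windows. A match is a description of letters and was not tested for function. Bases further upstream than 250, and start sites without a window, were not searched. A missing match therefore does not mean that a gene, such as FOS for the CArG box or NR4A1 for the CRE core, lacks the element. The windows below are those of JUN, the gene with the most negative fold change of the 10 in each of the 4 comparisons, of NR4A1, the gene that passed the test, and of FOS and EGR1, whose CRE, TATA and CArG motifs are textbook examples. Capitals mark TGACG or its complement, and also TATAAA in FOS, CArG boxes and the EGR site in EGR1, and in JUN the AP-1-like sites TTACCTCA (0.715% of all windows) and TGACATCA (2.61%), both of which were added to the search after the data had been seen. The NR4A1 window holds none of the motifs that are capitalized.
JUN, chr1:58783998-58784297, minus strand: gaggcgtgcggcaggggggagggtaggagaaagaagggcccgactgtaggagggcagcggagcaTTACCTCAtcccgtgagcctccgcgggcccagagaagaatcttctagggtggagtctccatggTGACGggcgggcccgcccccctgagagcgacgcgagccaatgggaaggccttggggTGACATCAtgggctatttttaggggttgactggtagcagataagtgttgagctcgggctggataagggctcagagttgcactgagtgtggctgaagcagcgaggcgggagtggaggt
NR4A1, chr12:52037465-52037764, plus strand: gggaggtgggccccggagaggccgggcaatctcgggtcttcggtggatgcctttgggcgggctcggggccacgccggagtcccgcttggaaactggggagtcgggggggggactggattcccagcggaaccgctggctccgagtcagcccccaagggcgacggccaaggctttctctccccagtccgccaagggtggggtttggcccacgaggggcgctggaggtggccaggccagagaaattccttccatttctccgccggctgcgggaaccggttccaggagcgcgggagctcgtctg
FOS, chr14:75278578-75278877, plus strand: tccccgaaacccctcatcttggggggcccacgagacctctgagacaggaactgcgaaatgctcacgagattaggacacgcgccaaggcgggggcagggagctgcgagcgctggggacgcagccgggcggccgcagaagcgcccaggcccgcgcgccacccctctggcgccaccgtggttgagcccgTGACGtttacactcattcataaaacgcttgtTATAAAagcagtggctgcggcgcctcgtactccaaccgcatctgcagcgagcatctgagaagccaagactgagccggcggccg
EGR1, chr5:138465229-138465528, plus strand: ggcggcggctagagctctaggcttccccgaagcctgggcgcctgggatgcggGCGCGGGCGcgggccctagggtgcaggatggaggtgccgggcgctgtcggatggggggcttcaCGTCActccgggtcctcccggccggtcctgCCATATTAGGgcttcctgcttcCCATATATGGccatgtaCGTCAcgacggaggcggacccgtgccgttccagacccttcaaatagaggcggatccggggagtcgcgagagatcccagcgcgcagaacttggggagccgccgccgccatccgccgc

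In EGR1 the pair of CArG boxes began 105 and 83 bases before the start site, between CRE cores at 135 and 66 bases before it. The TATA motif of FOS began 33 bases before the start site. The AP-1-like sites of JUN began 186 and 67 bases before its start site.

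The level of a gene is given as log2 intensity minus the log2 intensity at the 75th percentile of its array, so that 0 is the 75th percentile and a difference of 1 is a 2-fold difference. Levels of different probes are not compared. The RNA was that of whole cultures, so fewer cells with an mRNA and less of it per cell cannot be told apart. From 25804 to 32056 probes per array were well above background on the DMSO and NP slides and from 31408 to 45044 on the other slides, where the W and MET arrays of R1 (45044 and 44451) stood apart from the rest. Of 8 melanocyte lineage markers, 7 were above background on all 15 arrays, including MITF, SOX10 and PMEL. Of 8 markers of other cell types, KRT5 and EPCAM were not above background on any array, while probes for KRT14, PECAM1, PTPRC and COL1A1 were above it on all 15.

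Among the AP-1 genes, FOS, the founding partner of JUN, was nearly level. Its values were 0.05, 0.05 and -0.28 in DMSO (R1, R2 and R3), -0.12, 0.04 and -0.86 in NP, 0.13, 0.05 and -0.08 in W, -0.17, -0.02 and -0.06 in MET, and -0.05, -0.03 and -0.05 in PHEN. The array of NP R3 was the lowest, and all other arrays lay from -0.28 to 0.13. The range of FOSB, which forms the same kind of dimer, was -4.17 to -3.09 over all 15 arrays with a median of -3.48, and the groups overlapped in every comparison.

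JUN, the main DNA-binding partner in AP-1, was highest in W. It was 0.46, 0.81 and 0 in DMSO and 0.02, 0.43 and -0.48 in NP. It was 0.92, 1.04 and 1.32 in W, 0.45, 0.57 and 0.84 in MET, and 0.54, 0.55 and 0.48 in PHEN. The 3 W arrays were the highest of the 15, whereas DMSO overlapped with NP, MET and PHEN. Means ± SD (n = 3) were 1.09 ± 0.20 in W, 0.62 ± 0.20 in MET, 0.52 ± 0.04 in PHEN, 0.42 ± 0.41 in DMSO and -0.01 ± 0.46 in NP. After W, neighbours in this order overlapped.

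JUNB, which often opposes JUN in cell growth, was ordered by slide set. Its values were -1.76, -1.56 and -1.96 in DMSO, -2.08, -1.67 and -2.21 in NP, -0.93, -1.19 and -1.79 in W, -0.99, -0.85 and -1.15 in MET, and -1.21, -1.02 and -1.25 in PHEN. Only the W array of R3 reached into the range of the DMSO and NP arrays, and MET and PHEN lay above all 6 of those.

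The EGR genes showed a spread between experiments as large as that between groups. EGR1, a direct target of ERK signaling, was -1.64, -1.81 and -2.56 in DMSO, -1.48, -1.25 and -2.70 in NP, -2.01, -1.84 and -1.42 in W, -2.24, -2.16 and -1.65 in MET, and -2.03, -1.93 and -1.56 in PHEN. Both the highest and the lowest of the 15 values were NP arrays. EGR2, a regulator of myelination and of lymphocytes, ranged from -3.54 to -2.41 (median -2.95), and EGR3, itself induced by the same signals, from -3.77 to -2.97 (median -3.37). For both genes all 5 groups overlapped.

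NR4A1, a nuclear receptor induced by many stresses, differed most between the slide sets. It was -0.94, -0.61 and -2.10 in DMSO, -0.92, -0.34 and -2.29 in NP, -2.25, -2.04 and -3.72 in W, -2.04, -1.77 and -3.23 in MET, and -2, -1.93 and -3.29 in PHEN. R3 was the lowest of its group in all 5 groups, and among arrays of the same replicate number DMSO and NP lay above W, MET and PHEN. NR4A2, its close relative, was -1.04, -0.95 and -1.89 in DMSO, -1.07, -0.71 and -1.57 in NP, -1.78, -1.72 and -1.37 in W, -1.67, -1.46 and -1.15 in MET, and -1.31, -1.58 and -1.19 in PHEN, with all groups overlapping. IER2 was nearly flat, at 5.63 to 6.20 on the DMSO and NP arrays and 5.98 to 6.29 on the others.

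**Figure D1:**
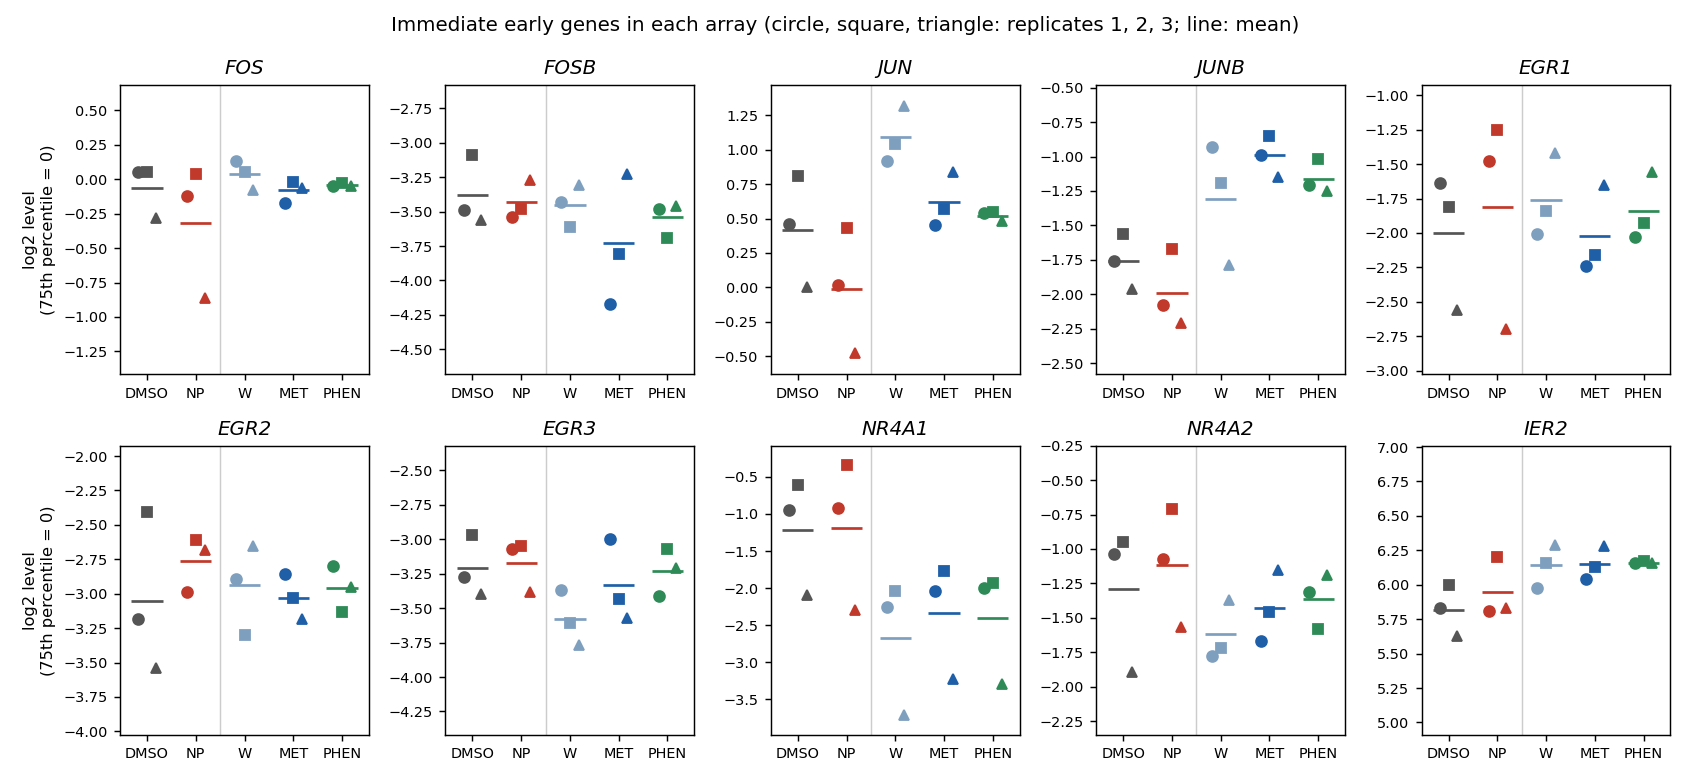
Level of each gene (y axis, log2 units with 0 at the 75th percentile of its array, 1 scale per panel) in the 5 groups (x axis). Circles, squares and triangles are R1, R2 and R3, lines are means of 3 arrays, and the grey line parts the slide sets. JUN was highest in the 3 W arrays, and the NR4A1 triangles were the lowest of every group.

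NP was compared with DMSO, its own solvent. None of the 10 genes passed the test, which required a 1.5-fold difference and an adjusted p of at most 0.05 (limma, Benjamini-Hochberg over all 26826 features), and 0.0373% of all features passed it. In this fit none had an unadjusted p of at most 0.05 (4.79% of all features), and none had NP and DMSO arrays that did not overlap (6.59% of all features). Fold changes ranged from -0.44 for JUN to 0.28 for EGR2, with 6 genes higher and 4 lower and a median of 0.04, beside -0.02 over all features. JUN was lower in all 3 experiments, by -0.44, -0.38 and -0.48 (mean -0.44, SE 0.23, 95% interval -0.95 to 0.08, adjusted p = 1 by limma with Benjamini-Hochberg adjustment). FOS and JUNB were also lower in all 3 experiments (-0.25 and -0.23, SE 0.17 and 0.15), neither past the test. The 95% intervals of 5 genes, FOSB, JUNB, EGR3, NR4A1 and IER2, lay within 1.5-fold in both directions, and those of the other 5 did not. FOSB (-3.56 to -3.09) and EGR3 (-3.40 to -2.97) were dim on these arrays. The dimmest probe above background was at -3.87 in DMSO R3 and -3.91 in NP R2. Narrow intervals of such dim probes do not by themselves show that the mRNA was level. The fit used 1 replicate term for both solvent sets. With the replicate as a block within each set, the SE were smaller for JUN (0.10), FOS (0.11), EGR1 (0.12) and NR4A2 (0.11). The methods' paired t-test gave JUN an unadjusted p of 0.00448, and 0.541 after Benjamini-Hochberg adjustment.

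MET was compared with W. None of the 10 genes passed the test, and neither did any other feature (0% of all). In this fit NR4A1 was the 1 gene with an unadjusted p of at most 0.05 (2.53% of all features). It was 0.33 higher (SE 0.12, 95% interval 0.06 to 0.59, adjusted p = 1, limma with Benjamini-Hochberg adjustment), and higher in all 3 experiments (0.21, 0.27 and 0.49). JUN was the 1 gene whose arrays did not overlap, with MET below W (6.02% of all features did not overlap). The JUN differences of -0.46, -0.48 and -0.47 in R1, R2 and R3 were close to one another, and the mean of -0.47 fell short of 1.5-fold (SE 0.23, 95% interval -0.99 to 0.05, adjusted p = 1 by limma with Benjamini-Hochberg adjustment). JUNB was 0.31 higher (SE 0.15) and FOSB 0.28 lower on the log2 scale (-0.28, SE 0.20), neither past the test, and without R1 they were 0.50 and -0.06 (JUNB was 0.14 without R3). With the replicate as a block within each set, the SE of JUN was 0.10 (adjusted p = 0.371, limma, Benjamini-Hochberg). The methods' paired test gave JUN an unadjusted p of 8.93e-05, and 0.218 after Benjamini-Hochberg adjustment. The same paired test gave EGR1 0.0118 and NR4A2 0.0499 (0.358 and 0.406 adjusted), and the other genes were above 0.05. None of these differences reached 1.5-fold. The median of the 10 genes was -0.04, beside 0 over all features.

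PHEN was compared with the same W arrays. Again none of the 10 genes passed the test (0.0261% of all features did). JUN, EGR3 and NR4A1 had an unadjusted p of at most 0.05 (2.42% of all features), at 0.0345, 0.0467 and 0.0493, and their adjusted p was 1 by limma with Benjamini-Hochberg adjustment. JUN was lower in every experiment, by -0.38, -0.49 and -0.84 (mean -0.57, SE 0.23, 95% interval -1.09 to -0.05), and was the 1 gene whose arrays did not overlap (8.21% of all features). EGR3 was 0.35 higher (SE 0.16) and higher in 2 of 3 experiments. NR4A1 was 0.27 higher (SE 0.12) and higher in all 3. The median of the 10 genes was 0, beside -0.04 over all features, and the 95% intervals of FOS, FOSB, JUNB, NR4A1 and IER2 lay within 1.5-fold.

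Side by side, JUN differed from its own solvent by -0.44 in NP, -0.47 in MET and -0.57 in PHEN, with the MET and PHEN values resting on the same 3 W arrays. None of the 3 differences passed the test. Against the DMSO arrays, which lay on other slides, the biguanide means of JUN had the other sign, 0.20 for MET and 0.10 for PHEN (adjusted p = 0.557 and 0.804, limma with Benjamini-Hochberg adjustment). The sign of the mean JUN difference thus depended on which solvent arrays were used. The positive means rested on R3. In R1, R2 and R3 the differences from DMSO were -0.01, -0.24 and 0.84 for MET and 0.08, -0.25 and 0.48 for PHEN. Against W, JUN was lower in every experiment with both drugs. The differences between the NP effect and each biguanide effect were tested directly. None of the 10 genes passed, and neither did any other feature (0% of all). The lowest p was that of JUNB, lower in NP and higher in MET (difference of effects -0.54, SE 0.21, adjusted p = 1, limma with Benjamini-Hochberg adjustment). Doses differed between the compounds, so the values are not a comparison of potency.

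**Figure D2:**
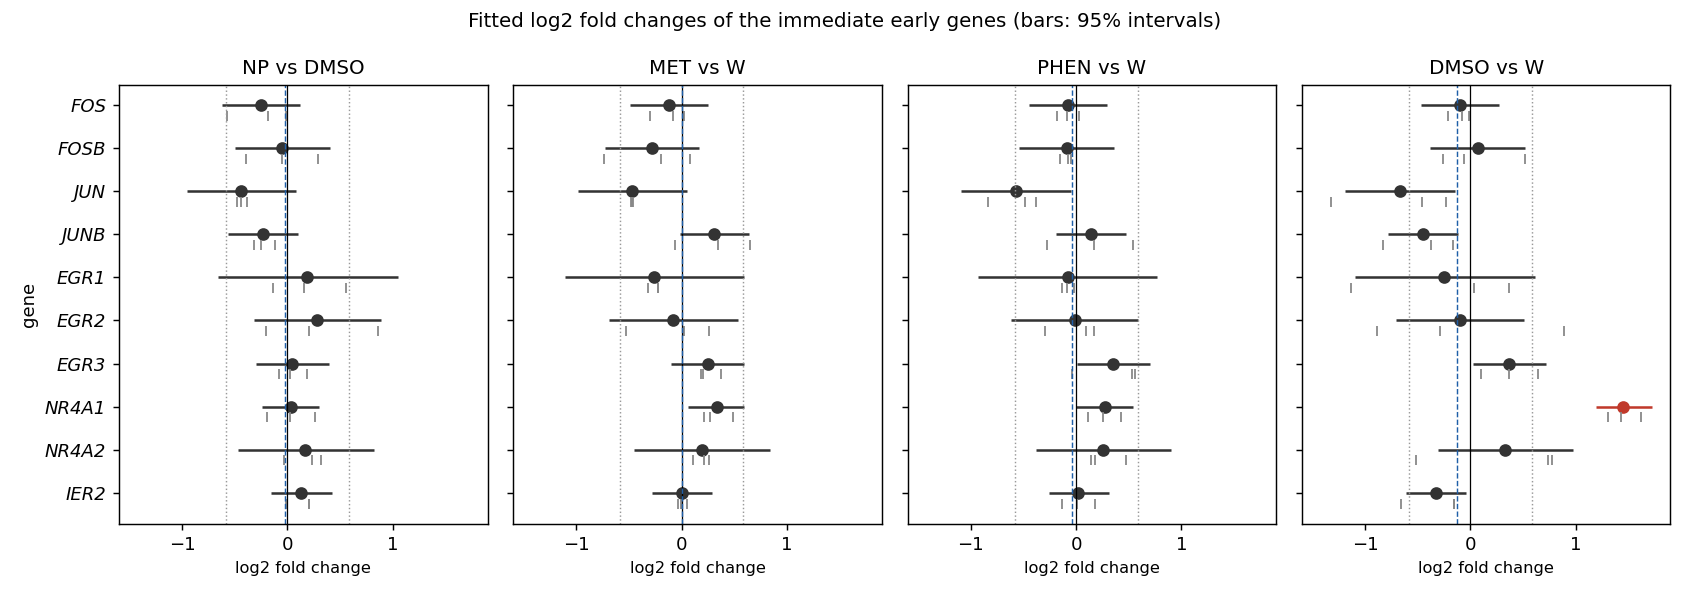
Fitted log2 fold change (x axis) of the 10 genes (y axis) in 4 comparisons. Points are estimates, bars 95% intervals and grey ticks the 3 experiments, dotted lines mark 1.5-fold and the dashed line the median of all features. NR4A1 in DMSO vs W (1.45, red) is the 1 value that passed the test.

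DMSO was compared with W to show what the solvent and the slide set together moved. NR4A1 was 1.45 higher in DMSO, 2.74-fold (SE 0.12, 95% interval 1.19 to 1.72, adjusted p = 0.00318, limma with Benjamini-Hochberg adjustment), and it had the smallest p of all 26826 features. Between arrays of the same replicate number it was higher by 1.31, 1.43 and 1.62. The groups nevertheless overlapped, since DMSO R3 (-2.10) lay below W R2 (-2.04). Without the replicate number in the fit the same difference had an SE of 0.64 and an adjusted p of 0.152 (limma, Benjamini-Hochberg), and replicate numbers did not pair DMSO with W arrays over all features (r of deviations -0.19 to -0.02). The difference also missed an adjusted p of 0.05 without R1 (1.53, adjusted p = 0.105) and without R2 (1.47, adjusted p = 0.107), where no feature passed, and was 1.37 without R3 (adjusted p = 0.00808, all by limma with Benjamini-Hochberg adjustment).

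NR4A1 was the 1 gene of 10 that passed the test in DMSO vs W, where 10.7% of all features passed. An unadjusted p of at most 0.05 was found for 5 genes (34.2% of all features), and JUN alone had arrays that did not overlap (30.4% of all features). JUN was lower in DMSO by -0.67 (SE 0.23, adjusted p = 0.0726), JUNB by -0.45 (SE 0.15, adjusted p = 0.0611) and IER2 by -0.33 (SE 0.13, adjusted p = 0.103), and EGR3 was 0.37 higher (SE 0.16, adjusted p = 0.124, all by limma with Benjamini-Hochberg adjustment). The JUN difference was -1.32 in R3 and -0.46 and -0.23 in R1 and R2, and was -0.35 without R3. The median of the 10 genes was -0.10, beside -0.13 over all features. Among the 5 of 8 markers of other cell types that were tested, KRT14 (-1) and CD3E (-0.92) were lower in DMSO and passed the test, while none of 8 melanocyte markers did. CD3E was above background on only 11 arrays. Of the melanocyte markers, SOX10 was lower (-0.45, adjusted p = 0.0187) and missed only the 1.5-fold threshold. TYR was -1.03 (SE 0.70, adjusted p = 0.327, both by limma with Benjamini-Hochberg adjustment). MITF, MLANA and PMEL were higher in DMSO (0.43, 0.18 and 0.03). The levels of each marker list were also summed on the linear scale, where the brightest probes weigh most, and the log2 of the sum taken. For the 8 other markers, with KRT5 and EPCAM below background on every array, it was 0.43 to 0.79 in DMSO and 0.75 to 1 in W. For the melanocyte markers it was 6.09 to 6.27 in DMSO and 6.09 to 6.24 in W. These marker sums do not show that every marker of a list was level. The part of the markers in the differences of NR4A1, JUN and JUNB was not tested.

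With the biguanides set against DMSO in place of W, 2 of the 10 genes passed the test with each drug, beside 17% of all features for MET and 10.2% for PHEN, so the count was near the general share. NR4A1 was lower in MET and PHEN than in DMSO by -1.13 and -1.19 (adjusted p = 0.000974 and 0.00156), and JUNB was higher by 0.76 and 0.60 (adjusted p = 0.00674 and 0.0232, all by limma with Benjamini-Hochberg adjustment). Against W, the solvent of the biguanides, NR4A1 was higher by 0.33 and 0.27 and JUNB by 0.31 and 0.14, and none of these passed the test.

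The R3 arrays stood apart for several genes. The labels do not say that a replicate number marks 1 experiment across both solvent sets. NR4A1 in R3 was lower than the mean of R1 and R2 in every group, by -1.33 in DMSO, -1.66 in NP, -1.58 in W, -1.33 in MET and -1.33 in PHEN. Only 8 of 26628 features with a value on all 15 arrays (0.03%) were lower by 1 or more in all 5 groups. EGR1 differed between the slide sets, with R3 lower in DMSO and NP (-0.83 and -1.34) and higher in W, MET and PHEN (0.50, 0.54 and 0.42). NR4A2 did the same (-0.90 and -0.68, then 0.38, 0.41 and 0.25), a pattern seen in 11.8% of all features. R3 had its own slide in each set, so experiment and slide cannot be told apart. Accordingly, EGR1 in DMSO vs W was -0.25 (SE 0.38) with all arrays and 0.20 without R3, and NR4A2 was 0.33 (SE 0.29) with all arrays and 0.76 without R3 (adjusted p = 0.0222, limma with Benjamini-Hochberg adjustment). The second NR4A2 probe showed less of the pattern, at -1.53, -1.67 and -1.78 in DMSO and -1.73, -1.95 and -1.71 in W, a difference of 0.13.

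**Figure D3:**
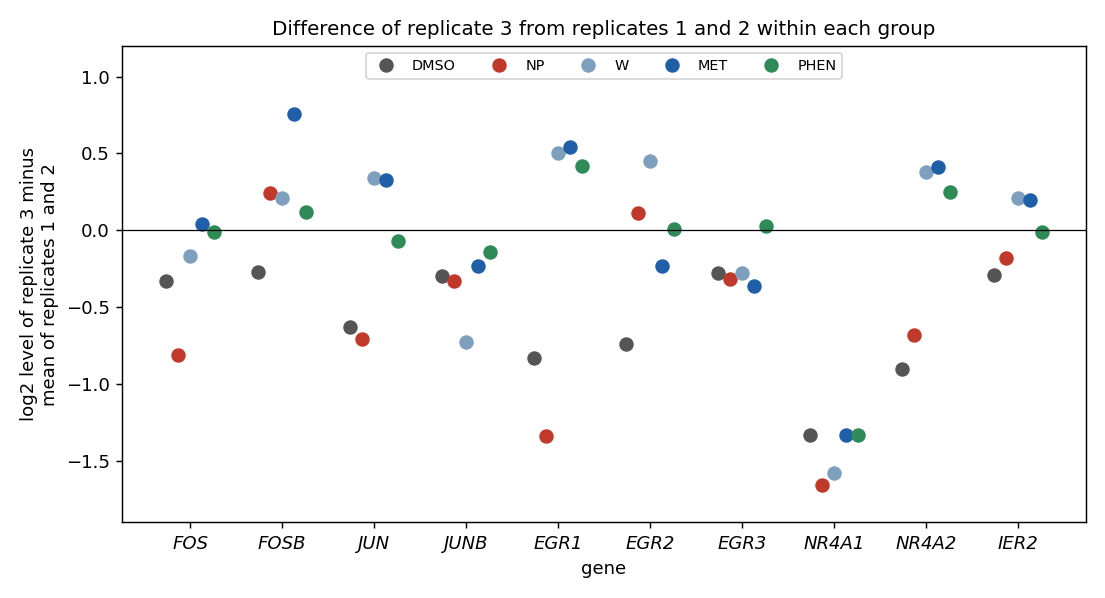
Log2 level of R3 minus the mean of R1 and R2 (y axis) for each gene (x axis), with 1 point per group. All 5 points of NR4A1 lie between -1.66 and -1.33, whereas EGR1 and NR4A2 lie below 0 in DMSO and NP and above 0 in W, MET and PHEN.

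The 10 genes did not move as a block over the arrays. After the mean of each solvent set was subtracted, the Pearson r of the 45 pairs over 15 arrays ran from -0.45 to 0.82 with a median of 0.26, and 12 pairs were over 0.5. EGR1 and NR4A2 were the closest pair (0.82), followed by NR4A2 and IER2 (0.80), JUNB and NR4A1 (0.77), and FOS and JUN (0.73). FOSB followed the mean of the 10 genes least (0.14) and FOS most (0.80). The 5 features outside the list that were most like that mean were TNFRSF11B, MYPN and MLANA (r = 0.97 each), NLRP3 and IL11 (0.96 each). With no subtraction they were MLANA (0.97), CCL20 (0.93), AGO1 and ACAA2 (0.92 each) and C3orf33 (0.91). These are descriptions over arrays that share experiments and slides. MLANA, a melanosome antigen, was -1.25, -0.13 and -2.72 in DMSO and -1.22, -0.34 and -3.17 in NP, but only -1.73 to -1.46 on the 9 W, MET and PHEN arrays. Within DMSO and NP, R2 was the highest and R3 the lowest, as for NR4A1.

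The wider class was covered by 4 lists of relatives and regulators, of which 74 genes were tested. Of 8 other AP-1 and bZIP genes, 1 passed the test in NP, none in MET and 1 in PHEN, each time JDP2, a bZIP repressor that dimerizes with JUN. Of all features, 0.0373% passed in NP, 0% in MET and 0.0261% in PHEN. JDP2 was 1.32 higher in NP (adjusted p = 0.0271) and 1.39 higher in PHEN (adjusted p = 0.0418), and 1.11 higher in MET without passing (adjusted p = 0.196, all by limma with Benjamini-Hochberg adjustment). It was higher in every experiment of all 3 compounds, with the smallest value 0.99. ATF3, a stress-induced bZIP factor, was higher in every experiment too, by 1.16 in NP, 0.84 in MET and 0.98 in PHEN (SE 0.22 each), and passed the test in none (adjusted p = 0.153, 1 and 0.791, limma with Benjamini-Hochberg adjustment). The medians of this list were 0.13, 0.19 and 0.10 in NP, MET and PHEN, beside -0.02, 0 and -0.04 over all features. JUN, with values of -0.44 to -0.57 in the same comparisons, had the opposite sign from both genes.

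No gene of the other lists passed the test with any compound, where at most 0.0373% of all features did. Among 17 other immediate early transcription factors, KLF4, a zinc finger factor, was 0.91 higher in NP, 0.39 in MET and 0.51 in PHEN (adjusted p = 0.127, 1 and 1), ID3, an inhibitor of basic helix-loop-helix factors, was 0.54 lower on the log2 scale in NP (-0.54, adjusted p = 0.123), KLF11 was -0.30 in MET and BHLHE40 was 0.27 in PHEN (adjusted p = 1 for both, all by limma with Benjamini-Hochberg adjustment). Among 29 other immediate early genes the values with the smallest p were 0.31 for GADD45A and 0.25 for ZFP36L1 in NP, 0.28 for PPP1R15A and 0.26 for IER5L in MET, and 0.12 for DUSP4 and 0.17 for ZFP36 in PHEN. Among 20 upstream regulators they were -0.27 for the ERK target kinase gene RPS6KA1 and -0.25 for ELK1 in NP, 0.25 for the CREB coactivator gene CRTC3 and 0.16 for RPS6KA1 in MET, and 0.15 for CRTC3 and -0.14 for ATF1 in PHEN. The medians of these 3 lists lay between -0.03 and 0.02 with each compound.

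In DMSO vs W, 5 of the 74 genes passed the test, a smaller share than the 10.7% of all features. JDP2 (1.07, adjusted p = 0.00456), MRTFB, an SRF coactivator (0.88, adjusted p = 0.00535), MAPK8, the kinase JNK1 (0.87, adjusted p = 0.0367), and CREB1 (0.67, adjusted p = 0.0377) were higher in DMSO. FOSL2, an AP-1 subunit, was lower (-1.12, adjusted p = 0.0461, all by limma with Benjamini-Hochberg adjustment), with -2.23 in R3 and -0.56 and -0.58 in R1 and R2. JUND (-0.47), ID3 (-0.38), BHLHE40 (0.36), IER3 (-0.42), DUSP4 (-0.37) and ELK4 (-0.58) had an adjusted p of 0.012 to 0.0401 by limma with Benjamini-Hochberg adjustment, with differences under 1.5-fold. ARC (-0.50), MAPK14 (-0.45), MAPK9 (-0.39), IRF1 (-0.50) and BTG1 (-0.36) were likewise under 1.5-fold, with an adjusted p of 0.0243 to 0.0491 by the same test. JDP2 was thus higher in DMSO than in W by nearly as much as in MET than in W, and the median of its list in DMSO vs W was -0.50, beside -0.13 over all features.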

How the data were processed

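The authors hybridized single-dye labeled RNA of 15 samples to Agilent arrays and deposited the spot intensity of each array after background subtraction and detrending, unnormalized between arrays. The submitters' processing notes give Agilent Feature Extraction 9.1 and the file headers 10.7.3.1. A second deposited table holds log2 values aligned at the 75th percentile and was used as an alternative.

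Control spots were removed, outlier spots set to missing, spots of a probe averaged, and the log2 75th percentile of the array subtracted (R 4.3.3). Probes called well above background in every array of some group were kept, the brightest per gene stood for it, and features needed a value on at least 8 arrays. The groups and the replicate number were fitted over 15 arrays with limma 3.58.1 (two-sided, Benjamini-Hochberg over all features). Replicate numbers paired arrays within a solvent set (r of deviations 0.22 to 0.86). Slide as a random block used statmod 1.5.0. The fit was tested on simulated data. Promoters and figures used Python 3.11.15, pandas 2.3.3, numpy 2.4.6 and matplotlib 3.10.9.

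The 10 genes, the lists and the tests were chosen with earlier results of these data known. Named list genes were those that passed the test, or else the 2 with the smallest p per list and comparison. For DMSO vs W, list genes with an adjusted p of at most 0.05 but under 1.5-fold were named as well. The 18 alternatives are described below, and 3 arrays per group limit the precision.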

Additional observations from a re-analysis of the deposited data

How the results depend on the processing

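The count of genes that passed the test, 0 of 10, was the same in NP vs DMSO under all alternatives. In MET vs W and PHEN vs W it was the same under all but DMSO in place of water (2 each, NR4A1 and JUNB, beside 17% and 10.2% of all features). Few features passed under the other alternatives. The largest shares, with the methods' unadjusted t-test, were 0.817% in NP, 0.445% in MET and 0.59% in PHEN. No feature passed with no filter on dim probes, only the groups compared, the adjusted t-test or a replicate left out. The count could only be 0 there. In MET vs W no feature passed in the main fit either. Against W, features passed in MET with slide as a term (0.00373%) or as a random block (0.0224%). They also passed with the replicate block within each set (0.00746%) and with the unadjusted p. Under every other setting against W the MET count could only be 0. The PHEN count could also only be 0 with no replicate block and without the W and MET arrays of R1. No gene passed in a difference of effects, and no other feature did in the differences with NP. In DMSO vs W the count of 1 became 0 with no replicate block, with slide as a random block, with only the groups compared and with the methods' t-test after Benjamini-Hochberg adjustment, became 2 with normexp (JUN, NR4A1) or quantile normalization (EGR3, NR4A1), and was 0 to 3 when each replicate was left out (3 without R3, NR4A1, NR4A2 and JUNB). Of all features in DMSO vs W, none passed with only the groups compared, with the adjusted t-test, without R1 or without R2. The share was 1.01% with slide as a random block, 7.37% with no replicate block and 18.7% without R3. It was 4.31% with normexp and 8.98% with quantile normalization. With no filter on dim probes it was 4.24%, and without the W and MET arrays of R1 4.34%. The median of all features in DMSO vs W, -0.13, was 0.04 with normexp and -0.01 with quantile normalization. NR4A1 kept its sign in all 15 settings (0.88 to 1.53) and passed in 9, among them the methods' t-test with an unadjusted p. It missed with no replicate block (adjusted p = 0.152), without R1 (0.105) or R2 (0.107) and with the slide as a random block (0.176). It also missed with only the groups compared (0.226) and with the methods' adjusted t-test (0.373, limma in the others). A slide term or a block within each set cannot estimate DMSO vs W. The 7 calls of the wider lists became 4 with no replicate block, 2 with no filter on dim probes, 2 without the W and MET arrays of R1 (chosen after the data had been seen), 0 with only the groups compared or the methods' adjusted t-test, and 0 to 12 when each replicate was left out. With the replicate as a block within each solvent set, the JUN differences had an adjusted p of 0.165, 0.371 and 0.217 in NP, MET and PHEN (limma, Benjamini-Hochberg). The SE of JUN was then 0.10 in NP and in MET, compared with 0.23 in the main fit.

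The authors' normalized table, probes above background on all 15 arrays and the mean of a gene's probes left every count of the 10 genes as it was. The sign of some values turned. With DMSO in place of water, MET gave JUN 0.20, EGR2 0.02, EGR3 -0.12, NR4A1 -1.13 and NR4A2 -0.14, and PHEN gave FOS 0.02, JUN 0.10, EGR1 0.17, EGR2 0.09, EGR3 -0.02, NR4A1 -1.19 and NR4A2 -0.07. Normexp gave EGR3 -0.02 in NP and EGR2 0.05 in MET, 0.03 in PHEN and 0.16 in DMSO vs W. Quantile normalization gave IER2 -0.01 in MET, FOSB 0.23, EGR1 0 and EGR2 0.20 in PHEN, and EGR2 0.14 in DMSO vs W. Leaving out replicates in turn gave, from lowest to highest, in NP vs DMSO FOSB -0.22 to 0.12, EGR2 0 to 0.53, EGR3 -0.03 to 0.11 and NR4A1 -0.09 to 0.14, in MET vs W EGR2 -0.25 to 0.14 and IER2 -0.02 to 0.02, in PHEN vs W JUNB -0.05 to 0.35, EGR2 -0.11 to 0.13 and IER2 -0.06 to 0.10, and in DMSO vs W FOSB -0.16 to 0.23, EGR1 -0.55 to 0.20 and EGR2 -0.59 to 0.30. Without the W and MET arrays of R1, IER2 was -0.02 in MET and -0.04 in PHEN and EGR2 was 0.05 in PHEN. Normexp lowered the JUNB difference in DMSO vs W from -0.45 to -0.12. The causes were not tested.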
